A study of Mus musculus with 14 samples.

Results

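Heme is built from glycine and succinyl-CoA by a chain of enzymes that starts and ends in the mitochondrion and passes through the cytosol between. Alad, the second enzyme of the chain, stood at about 3 times the wild-type level in the hippocampus of mice that lack GPR30 in neurons, and so did Hdhd3, the next gene on chromosome 4. The genes described here are the enzymes of heme synthesis Alas1, Alad, Uros, Urod, Cpox, Ppox and Fech, the heme-degrading enzyme Hmox1, and Hdhd3. They were selected on the level of Alad, which was higher after neuronal loss of GPR30, and Hdhd3 was taken in as its neighbor, so the values of both genes in these mice are the reason for the choice and not a finding. The 9 genes are 9 of the 55450 gene rows in the table, and all 9 passed the filter on low values, an FPKM (fragments per kilobase of transcript, scaled to the size of the library) of at least 0.5 in at least 3 libraries.

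Alas1 makes 5-aminolevulinate and sets the pace of the pathway in most tissues, where heme itself represses it. Alad joins pairs of 5-aminolevulinate into porphobilinogen and is the enzyme that lead inhibits. In the brain, heme serves the cytochromes of respiration and the guanylate cyclases and nitric oxide synthases of signaling, and every cell type makes its own. Hdhd3 encodes a protein of the haloacid dehalogenase-like hydrolase family and is not part of the heme pathway. Inbred strains of mice are known to carry different numbers of copies of Alad. DNA was not measured here.

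Poly(A) RNA of the hippocampus was sequenced from female C57BL/6J mice at 10 weeks of age. The libraries are titled by genotype and replicate number, and each is taken here as 1 mouse. The study asked what loss of GPR30, a membrane receptor for estrogen encoded by Gper1, does when it is complete or limited to 1 cell type. The groups were 3 WT mice, 3 Δ3102 mice, in which CRISPR/Cas9 removed GPR30 from all cells, 4 AG-KO mice (GPR30 fl/fl;GFAP-Cre) and 4 NG-KO mice (GPR30 fl/fl;NSE-Cre). The GFAP promoter drives Cre in astrocytes and the promoter of neuron-specific enolase drives it in neurons. Mice with the floxed allele alone or Cre alone were not analysed here, so the loss of GPR30, the Cre transgene and the background of each line cannot be told apart. The libraries held 44527024 to 62669865 counts. Gper1 ran from 0.797 to 3.05 FPKM in WT mice, from 0.0124 to 0.145 in Δ3102, from 0.540 to 1.38 in AG-KO and from 0.975 to 1.41 in NG-KO mice. The summed FPKM of 6 markers of hippocampal neurons lay between 336 and 396 in every library, and that of 5 astrocyte markers between 361 and 431. Most of these sums was Snap25 (232 to 273 FPKM) and Aldoc (204 to 269), so they say little of the other markers. Of the neuron markers, Zbtb20 ran from 1.84 to 6.45 and Rbfox3 from 30.2 to 38.8 FPKM. Of the astrocyte markers, Gfap ran from 61.1 to 121 and Gja1 from 15.1 to 18.5 FPKM. Sums of 8 hepatocyte markers ran from 61.3 to 551 across the libraries, and Alb was under 5 FPKM in 5 of them: Δ3102 replicate 3, AG-KO replicates 2, 3 and 4, and NG-KO replicate 1. The low sums were mostly Trf, 1 of the 8. Trf was at 56.0 FPKM in Δ3102 replicate 3, whose sum was 61.3. In AG-KO replicate 3 it was at 96.4 FPKM, with Alb at 0.0001. RNA from whole tissue cannot tell fewer cells of a type from less RNA per cell.

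The start sites of Alad and its neighbors are shown because the locus is where the members that differ lie. Alad (ENSMUSG00000028393) lies on the minus strand of chromosome 4 of GRCm38, from 62509169 to 62519894. Hdhd3 (ENSMUSG00000038422) lies on the same strand from 62499008 to 62503467, and 5701 bases separate the end of Hdhd3 from Alad. Pole3, on the other side, begins 2754 bases beyond Alad, also on the minus strand. Both Alad and Hdhd3 are protein coding, and no other gene model overlaps either of them. The sequences below, from RefSeq on GRCm38, are the stretches upstream of the annotated starts of the protein-coding transcripts, written 5′ to 3′ on the minus strand. Capitals mark the GC box GGGCGG and the E-box CACGTG, each searched on both strands, and these motifs do not overlap. The stretch of Hdhd3 lies in an intron of a second annotated transcript that starts further upstream.
Alad, chr4:62520064-62520313: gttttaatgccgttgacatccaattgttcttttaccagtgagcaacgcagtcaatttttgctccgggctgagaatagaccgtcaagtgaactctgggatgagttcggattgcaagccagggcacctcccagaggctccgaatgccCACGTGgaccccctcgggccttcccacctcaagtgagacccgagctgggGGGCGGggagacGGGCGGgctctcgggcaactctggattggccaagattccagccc
Hdhd3, chr4:62502277-62502450: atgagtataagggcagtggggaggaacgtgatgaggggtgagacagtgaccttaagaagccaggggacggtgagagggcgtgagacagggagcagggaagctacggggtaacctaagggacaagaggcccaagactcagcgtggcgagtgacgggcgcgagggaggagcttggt
Pole3, chr4:62525069-62525264: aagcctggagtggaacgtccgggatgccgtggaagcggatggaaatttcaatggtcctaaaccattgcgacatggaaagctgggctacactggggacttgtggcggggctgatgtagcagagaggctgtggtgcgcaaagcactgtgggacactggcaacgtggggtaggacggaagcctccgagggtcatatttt
The stretch upstream of Alad holds 2 GC boxes and 1 E-box, and the stretches shown for Hdhd3 and Pole3 hold neither. The rest of the Hdhd3 window, not shown, holds a GC box. Among 32851 windows of 250 bases upstream of RefSeq start sites, 32.7% hold the GC box and 6.02% hold the E-box. Windows were found for 7 of the 9 members, and the E-box was also found upstream of Uros and Urod. A match describes these letters only.

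Alad was measured at 8.36, 8.63 and 7.32 FPKM in the 3 WT mice, at 9.10, 8.31 and 8.58 in the Δ3102 mice, and at 8.04, 9.61, 7.80 and 9.07 in the AG-KO mice. In the 4 NG-KO mice it was measured at 24.3, 24.7, 22.3 and 28.3 FPKM. The lowest NG-KO library was 2.32 times the highest of the other 10, so the groups were far apart, and each NG-KO mouse lay between 2.75 and 3.49 times the WT mean. The counts behind these values were 735 to 1146 outside the NG-KO group and 2374 to 2900 within it.

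Hdhd3 was lower in level and more variable. It was measured at 3.72, 3.32 and 2.58 FPKM in WT, at 2.58, 2.30 and 3.37 in Δ3102, and at 1.38, 3.43, 2.85 and 1.70 in AG-KO mice. The NG-KO mice had 7.63, 9.78, 6.97 and 11.3 FPKM, all above the other 10 libraries, and the lowest of them was 1.87 times the highest of the others. Each NG-KO mouse lay between 2.17 and 3.52 times the WT mean. Within the NG-KO group, replicate 4 was the highest and replicate 3 the lowest for both genes. All 4 NG-KO libraries lay above all 10 others for 52 of the 18059 genes that passed the filter, 0.288% of them.

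**Figure D1:**
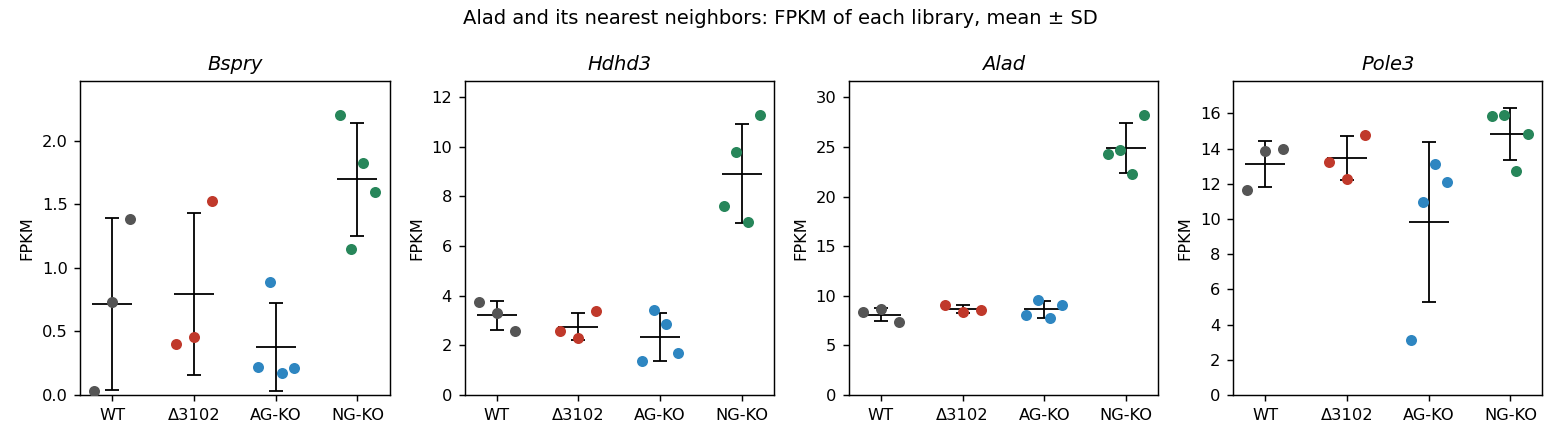
FPKM (vertical axes, each with its own scale from 0) of Bspry, Hdhd3, Alad and Pole3, in their order along chromosome 4, in the 4 groups; each point is 1 mouse and the bars are the mean and SD. The NG-KO points of Alad, 22.3 to 28.3 FPKM, and of Hdhd3, 6.97 to 11.3 FPKM, stand above every other mouse, and those of Pole3 do not.

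As a description of the contrast on which Alad was chosen, its log2 fold change in NG-KO against WT mice was 1.63 (standard error 0.11) and that of Hdhd3 was 1.48 (standard error 0.32), from a fit of all 14 libraries in edgeR. The same fit placed Alad 1.51 above AG-KO and 1.53 above Δ3102 mice on the log2 scale, and Hdhd3 1.91 and 1.70. Without the 5 libraries low in Alb, where 1 AG-KO mouse is left, the value of Hdhd3 against AG-KO mice was 2.78. These 3 comparisons share the NG-KO libraries and are not separate evidence. In NG-KO against WT mice edgeR called 0.072% of all genes, and no call is given for the members there, since it is the contrast of the choice. The ratio of Alad to Hdhd3 FPKM was 2.56 ± 0.30 (SD, n = 3) in WT, 3.23 ± 0.59 (SD, n = 3) in Δ3102, 4.17 ± 1.63 (SD, n = 4) in AG-KO and 2.85 ± 0.39 (SD, n = 4) in NG-KO mice. Among the latter the ratio, 2.50 to 3.20 over the 4 libraries, overlapped the 2.24 to 2.84 of WT mice.

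Alad showed no detectable difference in the mice that lack GPR30 everywhere. Its mean was 8.67 ± 0.40 FPKM (SD, n = 3) in Δ3102 against 8.10 ± 0.69 (SD, n = 3) in WT mice, a log2 fold change of 0.10 (standard error 0.12, 95% interval -0.15 to 0.35, adjusted p = 1.0 from edgeR). The exact two-sided permutation test of FPKM gave p = 0.5, where 3 mice against 3 cannot go below 0.1. In AG-KO mice the mean was 8.63 ± 0.86 FPKM (SD, n = 4), a log2 fold change of 0.12 against WT (standard error 0.11, 95% interval -0.12 to 0.36, adjusted p = 0.649 from edgeR). The exact permutation p was 0.457. The smaller tail was doubled, so 4 mice against 3 could not reach the threshold used here for adjusted p-values. The ranges of the WT, Δ3102 and AG-KO groups overlapped one another.

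Hdhd3 had a log2 fold change of -0.22 (standard error 0.33, 95% interval -0.92 to 0.48) in Δ3102 and of -0.42 (standard error 0.30, 95% interval -1.08 to 0.23) in AG-KO against WT mice. Neither passed, at adjusted p = 1.0 and 0.547 from edgeR. The exact permutation p was 0.5 and 0.286, and after adjustment over the 6 permutation tests of both genes the smallest was 0.686. Hdhd3 counts were 106 to 332 in these libraries, and its intervals were wider than those of Alad.

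None of the other 7 members was called by edgeR, DESeq2 or limma in a tested comparison, and their log2 fold changes against WT lay between -0.51 and 0.27. In WT mice Urod had the highest level, 10.9 ± 2.52 FPKM (SD, n = 3), followed by Alad at 8.10 ± 0.69, Alas1 at 7.82 ± 0.62, Cpox at 6.57 ± 0.51, Uros at 6.11 ± 1.48 and Ppox at 4.23 ± 0.44. Fech (3.62 ± 0.47), Hmox1 (3.36 ± 0.54) and Hdhd3 (3.21 ± 0.58) were the lowest. Each gene overlapped the next in this order over the 3 WT mice, except Alas1 and Cpox. In NG-KO mice Alad came first, 24.9 ± 2.48 FPKM (SD, n = 4), and did not overlap Urod, the next, at 12.2 ± 1.26, and Hdhd3 moved from the ninth place to the third.

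Alas1, the enzyme that usually limits the pathway, ran from 7.44 to 8.54 FPKM in WT, 7.66 to 8.86 in Δ3102, 7.42 to 8.73 in AG-KO and 7.65 to 9.46 in NG-KO mice. Its log2 fold changes against WT were 0.08, 0.08 and 0.13 in that order of genotypes, with standard errors of 0.10, 0.09 and 0.10. All 4 ranges overlapped. The 95% intervals in AG-KO mice, -0.13 to 0.28, and in Δ3102 mice, -0.14 to 0.30, bound the differences that these mice allow.

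Uros, which closes the porphyrin ring, was measured at 7.12, 6.79 and 4.42 FPKM in WT and at 4.29, 4.08 and 4.47 in Δ3102 mice. WT replicate 3 lay among the Δ3102 mice. The log2 fold change was -0.51 (standard error 0.20), with an unadjusted p of 0.0264 from edgeR and an adjusted p of 1.0, so the difference failed the correction. Uros ran from 4.12 to 6.77 FPKM in AG-KO and from 3.98 to 5.54 in NG-KO mice, with 2 AG-KO mice near the upper WT values and 2 near the lower one.

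Urod, which trims the ring's side chains, spread widely within the groups, from 8.55 to 13.6 FPKM in WT and from 10.7 to 15.1 in Δ3102 mice. In AG-KO mice it ran from 10.3 to 12.3 and in NG-KO mice from 11.1 to 13.97 FPKM, within or just above the WT range. Cpox, which makes protoporphyrinogen in the space between the mitochondrial membranes, ran from 6.22 to 7.16 FPKM in WT mice, and its log2 fold changes against WT lay between -0.05 and 0.06. AG-KO replicate 1 had the highest Cpox level of all, 8.47 FPKM.

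Ppox, which oxidizes protoporphyrinogen, had log2 fold changes against WT from -0.03 to -0.01, with 3.38 to 5.00 FPKM over all libraries. Exons of Ppox overlap those of B4galt3 on the other strand, whose mean count was 2464 against 1130 for Ppox, and the strand setting of the counting is not given in the sources used here. Fech, which inserts the iron, had 3.14 to 4.07 FPKM in WT, 3.33 to 4.38 in Δ3102, 3.29 to 3.70 in AG-KO and 3.55 to 4.03 in NG-KO mice. No group stood apart for either gene.

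Hmox1, the inducible enzyme that opens the heme ring, was measured at 2.74, 3.67 and 3.67 FPKM in WT and at 2.11, 2.33 and 2.98 in Δ3102 mice. The log2 fold change was -0.44 (standard error 0.28, 95% interval -1.05 to 0.17), and the groups overlapped. In NG-KO mice replicate 1 had 4.82 FPKM and the other 3 had 2.22 to 2.76, so 1 mouse was the highest of all 14 and the rest were at or near the low end.

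**Figure D2:**
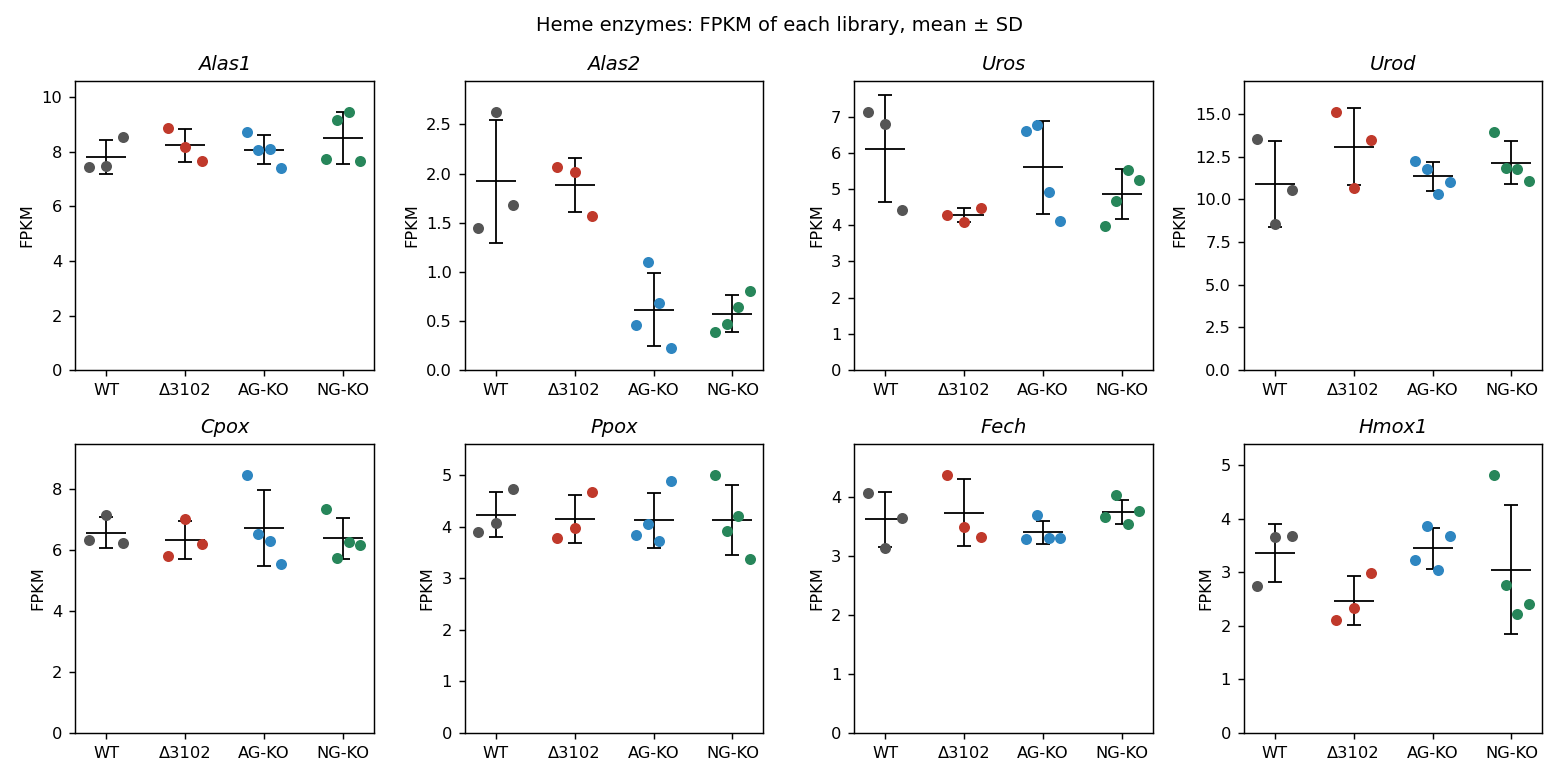
FPKM (vertical axes, each from 0) of 8 heme enzymes in the 4 groups; each point is 1 mouse and the bars are the mean and SD. Every pair of groups overlaps in every panel except those of Alas2 and Hmox1. For Alas2 the AG-KO and NG-KO mice, 0.227 to 1.10 FPKM, lie below the WT and Δ3102 mice, 1.45 to 2.63 FPKM. For Hmox1 the AG-KO mice, 3.04 to 3.86 FPKM, lie just above the Δ3102 mice, 2.11 to 2.98 FPKM.

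Counted over the members, edgeR called 0 of 9 in Δ3102 against WT mice, where 0.0111% of all 18059 genes were called, 0 of 9 in AG-KO against WT mice (0.0221%) and 0 of 9 in AG-KO against Δ3102 mice (0.0277%). At an unadjusted p under 0.05 the counts were 1, 0 and 0, where 4.45%, 14.4% and 10.6% of all genes lay, and DESeq2 (0.166%, 2.26% and 0.653% of all genes) and limma (0.0111%, 0.0277% and 0.0388%) called 0 members in each. With backgrounds this low, 0 called members is what any 9 genes would mostly give. The log2 fold changes of the 9 members ran from -0.51 to 0.27 in Δ3102 mice (median -0.03, and -0.0037 for all genes) and from -0.42 to 0.12 in AG-KO mice (median 0.06, and -0.01 for all genes).

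The 7 members other than Alad and Hdhd3 were also tested between NG-KO mice and the other knockouts. Here edgeR called 0 of 7 against AG-KO mice, where 0.111% of all genes were called, and 0 of 7 against Δ3102 mice (0.0609%), and 0 lay at an unadjusted p under 0.05 in either, where 14.1% and 6.46% of all genes lay. DESeq2 (2.38% and 0.449% of all genes) and limma (0.133% and 0.0664%) called 0 in both. The log2 fold changes ran from -0.22 to 0.12 against AG-KO mice and from -0.09 to 0.32 against Δ3102 mice, beside the described 1.51 and 1.53 of Alad. For Alas1 the 95% interval against AG-KO mice was -0.13 to 0.25, and for Fech it was -0.10 to 0.34.

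**Figure D3:**
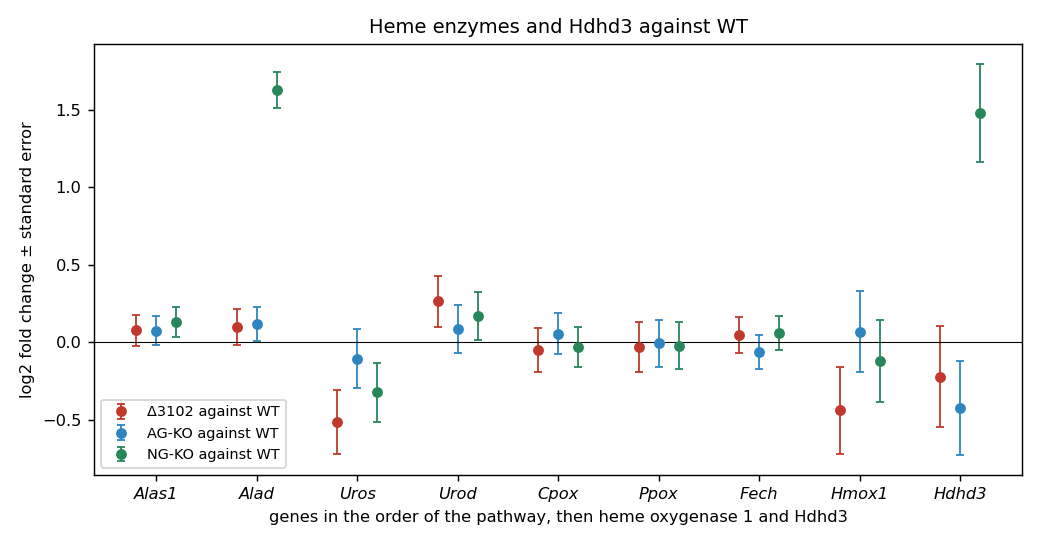
Log2 fold change against WT (vertical axis) with its standard error for the 9 members, in the order of the pathway, in Δ3102, AG-KO and NG-KO mice. Alad at 1.63 and Hdhd3 at 1.48 in NG-KO mice stand apart, and the other points lie between -0.51 and 0.27.

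Outside the member list, Alas2, the form of the first enzyme used by red cell precursors, was measured at 1.45, 2.63 and 1.69 FPKM in WT and at 2.07, 2.02 and 1.57 in Δ3102 mice. It was measured at 0.456, 1.10, 0.681 and 0.227 FPKM in AG-KO and at 0.392, 0.465, 0.643 and 0.803 in NG-KO mice. All 8 mice of the Cre lines lay below all 6 others, which held for 0.316% of all genes. The log2 fold change in AG-KO against WT mice was -1.60, with a standard error of 0.43 and an edgeR adjusted p of 0.169, which did not pass, while DESeq2 gave an adjusted p of 0.0296 and called 2.26% of all genes. Against WT, NG-KO mice had a difference of -1.71 on the log2 scale (standard error 0.43), and Δ3102 mice of -0.02 (standard error 0.46). The summed FPKM of 8 red cell markers, Alas2 and the globins among them, was 488 to 1126 in WT, 604 to 859 in Δ3102, 167 to 434 in AG-KO and 246 to 531 in NG-KO mice. Epb42 was at the floor of the table in all 8 AG-KO and NG-KO mice and in 4 of the 6 others. The part of red cell RNA in the Alas2 values was not tested.

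Among 17 genes of heme transport and insertion, 7 of heme breakdown and its control, and 13 of iron supply, edgeR called 0 in Δ3102 and 0 in AG-KO against WT mice. At an unadjusted p under 0.05 there were 0, 0 and 0 of them in Δ3102 mice, where 4.45% of all genes lay, and 2, 1 and 2 in AG-KO mice, where 14.4% lay. The 5 of 37 in AG-KO mice are near that background. DESeq2 called 0 of the 37 in both, beside 0.166% and 2.26% of all genes. Pgrmc1, a heme-binding membrane protein that associates with Fech, was the highest of the transport genes at a mean of 132 FPKM. Flvcr2, of the Flvcr transporter family, had the largest difference from WT of the transport genes, with a log2 fold change of 0.79 in AG-KO mice (standard error 0.38, adjusted p = 0.366 from edgeR). Hmox2, the constitutive heme oxygenase, had a mean of 33.8 FPKM. Tfrc, the transferrin receptor, had 15.1 ± 2.50 FPKM (SD, n = 3) in WT and 9.21 ± 3.13 (SD, n = 4) in AG-KO mice, with a log2 fold change of -0.68 (standard error 0.22, adjusted p = 0.208 from edgeR). Fth1, the ferritin heavy chain that stores iron, was the highest of the iron genes at 560 FPKM.

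Hp, which encodes the hemoglobin-binding plasma protein haptoglobin and is made mainly by liver, had the largest difference of the breakdown list, with a log2 fold change of -2.75 in AG-KO mice (standard error 1.26, adjusted p = 0.345 from edgeR). Its level was 0.205 FPKM in Δ3102 replicate 3 against 27.6 and 17.0 in the other 2 Δ3102 mice. The 5 libraries with Alb under 5 FPKM were the 5 lowest in Hp, and the part of liver RNA in it was not tested. In the same 5 libraries Alad was at 8.58, 9.61, 7.80, 9.07 and 24.3 FPKM in the order given above, and NG-KO replicate 1 lay among the other NG-KO mice. Leaving out these libraries was 1 of the 24 settings tried. Over these settings the log2 fold change of Alad in NG-KO against WT mice ran from 1.51 to 1.68. That of Hdhd3 ran from 1.23 to 1.61.

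The question for the locus was how far along chromosome 4 the pattern of Alad and Hdhd3 reached. Within 250 kb of the ends of Alad there were 17 gene models, of which 13 are protein coding and 11 passed the filter. Pole3, a histone-fold subunit of DNA polymerase epsilon and the nearest gene on the far side of Alad, was measured at 11.6, 13.9 and 13.96 FPKM in WT and at 15.8, 15.9, 12.7 and 14.8 in NG-KO mice. These ranges overlapped, with a log2 fold change of 0.19 (standard error 0.34). AG-KO replicate 1 had 3.15 FPKM of Pole3 against 11.0 to 13.1 in the other 3 AG-KO mice.

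Bspry, which encodes a protein with B-box and SPRY domains and ends 1709 bases from Hdhd3, was measured at 2.21, 1.15, 1.83 and 1.60 FPKM in NG-KO and at 0.217, 0.892, 0.175 and 0.215 in AG-KO mice. These ranges did not overlap, which held in this direction for 3.31% of all genes. The WT mice, 0.0311, 0.728 and 1.38 FPKM, and the Δ3102 mice, 0.400, 0.454 and 1.53, spread widely and overlapped the NG-KO mice. The log2 fold change in NG-KO against AG-KO mice was 2.15, with a standard error of 0.84 and an edgeR adjusted p of 0.277, so Bspry did not pass.

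Cdc26, a subunit of the anaphase-promoting complex, had 3.42 to 5.01 FPKM in NG-KO and 2.42 to 3.17 in AG-KO mice. Its log2 fold change between them was 0.57 (standard error 0.14), with an adjusted p of 0.135 from edgeR and 0.0214 from DESeq2. The other neighbors, the copper transporter genes Slc31a1 and Slc31a2, the splicing factor gene Prpf4, Fkbp15, Wdr31 and the G-protein regulator gene Rgs3, had log2 fold changes against WT from -0.32 to 0.31 in NG-KO mice. Against AG-KO mice these were -0.44 for Rgs3 and 0.62 for Wdr31 at the extremes (adjusted p = 0.291 and 0.235 from edgeR). Slc31a2 had the largest difference among the other pairs of groups, 1.02 between AG-KO and Δ3102 mice (standard error 0.29, adjusted p = 0.356 from edgeR). In the 5 tested comparisons edgeR called 0 of the 9 neighbors, and DESeq2 called 1, Cdc26, in the comparison where it called 2.38% of all genes. At an unadjusted p under 0.05 there were 4 in NG-KO against AG-KO mice (14.1% of all genes), 3 in NG-KO against Δ3102 (6.46%) and 3 in AG-KO against Δ3102 mice (10.6%). There was 1 in Δ3102 against WT (4.45%) and 0 in AG-KO against WT mice (14.4%).

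**Figure D4:**
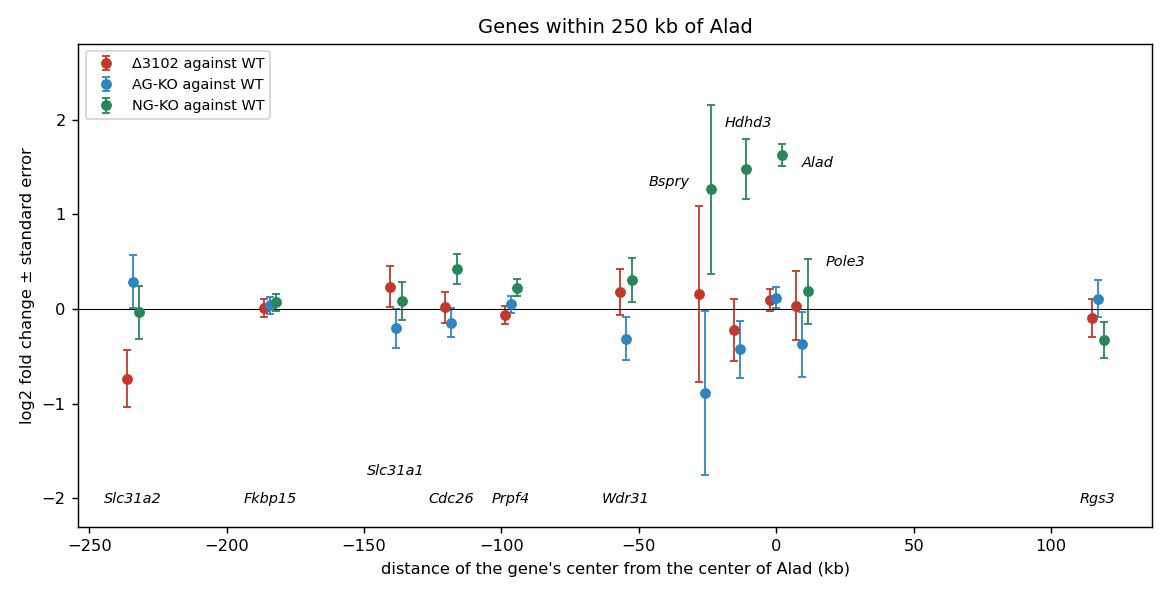
Log2 fold change against WT (vertical axis) with its standard error for the 11 genes that passed the filter within 250 kb of Alad, by distance of the gene's center from that of Alad in kb (horizontal axis). In NG-KO mice Alad (1.63) and Hdhd3 (1.48) are high with standard errors of 0.11 and 0.32, Bspry is at 1.27 with a standard error of 0.89, and Pole3 is at 0.19.

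Over the 14 libraries, Hdhd3 followed Alad with a Pearson's r of 0.906 on log2(FPKM + 0.1), and 3 of the 18059 genes had a higher r. Because the NG-KO mice form a cluster of their own for Alad, r mostly measures the step between them and the rest, and it is given as a description. Leaving out the members and predicted gene models, the 8 genes most like Alad were Invs, Tspan11, Eno2, Hist1h2bk, Wbp11, Tmem179, Hist1h2bj and Tnpo2, with r from 0.949 to 0.845. Invs, the ciliary protein inversin gene, also lies on chromosome 4, from 48279760 to 48396314, and averaged 3.23 FPKM in NG-KO mice and 1.43 in the others. Eno2, which encodes neuron-specific enolase and whose promoter drives Cre in NG-KO mice, averaged 179 FPKM in NG-KO mice and 146 in the others. Tspan11, of the tetraspanin family, averaged 0.795 and 0.160 FPKM, and the histone H2B gene Hist1h2bk 3.55 and 0.378. Of the marker lists, the summed oligodendrocyte markers were 144 to 241 FPKM in NG-KO and 263 to 615 in WT mice. They were 223 to 264 in Δ3102 mice, overlapping the NG-KO mice, and 261 to 492 in AG-KO mice. Choroid plexus sums, 4.52 to 44.0 in NG-KO and 75.1 to 119 in WT mice, did not overlap either. Nor did hepatocyte sums, 61.3 to 207 and 476 to 531. For both lists the Δ3102 and AG-KO ranges overlapped that of NG-KO mice. The gap in the choroid plexus sums was that of Ttr alone, 72.0 to 114 FPKM in WT and 1.81 to 42.1 in NG-KO mice. The other markers of that list, Kl, Folr1 and Clic6, each overlapped between WT and NG-KO mice. The part of these cell types in the Alad values was not tested. Sums of neuron markers, mostly Snap25, were 336 to 393 FPKM in NG-KO and 351 to 384 in WT mice, and overlapped.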

How the data were processed

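The authors sequenced hippocampal poly(A) RNA in 14 libraries, 3 or 4 per genotype, each taken here as 1 mouse. According to the study's methods and the submitters' processing notes, cutadapt 1.9 trimmed the reads, HISAT2 2.0.4 aligned them to GRCm38 and StringTie 1.3.4d assembled transcripts. UMI-tools, DESeq2 and edgeR are listed too, with no stated role. The deposited FPKM values come from StringTie as run by the authors, with 0.0001 standing for no signal. The deposited count values are whole numbers and not normalized, and the program that made them is not given in the sources used here. FPKM divides by transcript length, so levels were compared between genes on that scale only.

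The members, gene lists and tests were chosen with earlier results of these data known. Counts of all 14 libraries were fitted in edgeR 4.0.16 (TMM, quasi-likelihood test, 1 mean per genotype) in R 4.3.3 for the 18059 genes that reached an FPKM of 0.5 in 3 or more libraries. The Benjamini-Hochberg adjusted p covers these genes, with a threshold of 0.05, two-sided. The standard error is the absolute log2 fold change over the square root of F. Alad and Hdhd3 were not tested in any comparison with NG-KO mice, nor was any member in NG-KO against WT mice. For p-values, n is libraries, each taken as 1 mouse, and nothing in the labels says whether mice shared a litter. Two-sided exact permutation tests of FPKM were run for Alad and Hdhd3. Genes named are all members, the protein-coding genes that pass the filter near Alad, from each other heme list the gene with the highest FPKM and those with large fold changes against WT, and the 8 genes with symbols most like Alad. Alternatives were DESeq2 1.42.0, limma 3.58.1 on log2(FPKM + 0.1) and log2(FPKM + 1), no filter, a filter at 1 FPKM, the replicate number as a block, scaling by median ratios, each library left out, and a fit of only the 2 groups compared. Leaving out the 5 libraries under 5 FPKM of Alb was added after seeing the data. The procedure was tested on simulated data. Gene positions and sequences are on GRCm38, from the table, GENCODE vM21 and RefSeq. The end of Alad in the table differs from that annotation. Figures were drawn with matplotlib 3.10.9. Some genes of the lists are not reported here.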

Additional observations from a re-analysis of the deposited data

Results flagged for a closer look

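Fech in AG-KO mice had 1 library far from the others. AG-KO replicate 2 was at 3.70 FPKM and the other 3 were between 3.29 and 3.31, so the gap to the nearest was 0.950 of the group's range. Chance flags about 1 in 20 groups, and 22 groups of 4 libraries were examined. The level of Fech in replicate 2 lay within the range of WT mice.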

How the results depend on the processing

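In the 5 tested comparisons the number of members called was 0 under every alternative, with the replicate block included, and the 45 fold changes of members kept their call, or where described without a test stayed within the spread of the mice, in 1034 of 1035 alternative values. The exception was the described log2 fold change of Hdhd3 in NG-KO against AG-KO mice, 1.91, which was 2.78 without the 5 libraries under 5 FPKM of Alb, where AG-KO replicate 1 alone stands for its group. Values that did not pass changed sign in 66 cases over 22 results. Over 24 settings the log2 fold change in NG-KO against WT mice ran from 1.51 to 1.68 for Alad and from 1.23 to 1.61 for Hdhd3. The replicate numbers gave no clear sign of pairing the mice. The correlation of deviations of same-numbered mice ran from -0.23 to 0.22 over 19 pairs (median -0.01), with 6 over 0.1. For mice with different numbers it ran from -0.35 to 0.33 over 54 pairs (median -0.0023), with 13 over 0.1. The replicate block lowered the number of genes called over the whole table from 2 to 1 in Δ3102, from 4 to 1 in AG-KO and from 13 to 5 in NG-KO against WT mice. Over all settings, DESeq2 included, the number of genes called ran from 0 to 30 in Δ3102 against WT, 1 to 408 in AG-KO against WT, 1 to 118 in AG-KO against Δ3102, 9 to 430 in NG-KO against AG-KO and 6 to 81 in NG-KO against Δ3102 mice, with the highest counts from DESeq2. Without AG-KO replicate 2, edgeR called 87 in AG-KO against WT and 297 in NG-KO against AG-KO mice. With DESeq2, Alas2 passed in AG-KO against WT (-1.59) and Cdc26 in NG-KO against AG-KO mice (0.56). Pgrmc1 passed in NG-KO against AG-KO mice without AG-KO replicate 2 (log2 fold change 0.54, adjusted p = 0.0435 from edgeR). Without the 5 libraries, Pole3 in AG-KO against WT mice had a log2 fold change of -2.07 (adjusted p = 0.00896 from edgeR), and -2.04 against Δ3102 and 2.22 in NG-KO against AG-KO mice also passed, all resting on AG-KO replicate 1, and Hp and Hpx passed in NG-KO against Δ3102 mice, at -2.28 and -2.29. Adding the counts of gene models that overlap Alad gave no value, since none does. Counts of 106 to 332 for Hdhd3 limit what could be detected there.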
